A study of Mus musculus with 16 samples.

Results

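The genes described here encode the receptors for insulin and insulin-like growth factors (IGFs), the adaptors and kinases that act below them, and the FoxO transcription factors at the end of the pathway. They are Igfbp4, Insr, Igf1r, Igf2r, Irs1, Irs2, Akt1, Akt2, Foxo1 and Foxo3. Members were picked by gene symbol, and each gene was read from its brightest probe set on average. All 10 passed the filter on dim signals, out of 10610 genes tested. They have 32 probe sets on the array, of which 22 passed the filter, at a log2 intensity of 4 on at least 2 arrays.

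The material was RNA of R7T1, a line of mouse pancreatic beta cells. As background, such lines were made with a tetracycline-regulated viral large T antigen, and the labels do not say whether it was switched on here. Cells received BayK8644, Exendin-4, both agents together, or the DMSO vehicle, and RNA was taken at 0.5, 2, 6 and 24 h. BayK8644 is an agonist of L-type calcium channels and Exendin-4 is a peptide agonist of the GLP-1 receptor. The labels write the first compound as BayK8644(2a), leave the 2a unexplained and give no doses. Each treatment at each time was 1 array, so 16 arrays were made and no treatment and time had a replicate. The labels name no separate cultures, and spread between replicates could not be estimated. The error behind each p-value came from departures of single arrays from the fitted model, possibly technical. For an agent at a time these were departures from additive effects of the agents, pooled over times. For treatments over times, and times over treatments, they were differences in treatment effect between times. The number of arrays limits the precision. In RNA from a whole culture, fewer expressing cells and less RNA per cell cannot be told apart.

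When insulin or an IGF binds its receptor, the receptor's tyrosine kinase phosphorylates IRS adaptors, which recruit PI 3-kinase and so activate AKT. AKT phosphorylates FoxO factors and keeps them out of the nucleus, which lowers transcription of their target genes. In beta cells, IRS2 signalling is known to support survival and growth of the cell mass, and Irs2 is a described target of the cAMP-responsive factor CREB. Arrays measure RNA, so phosphorylation and nuclear location were not measured.

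Beta-cell identity was visible in the markers. All 15 annotated genes of an 18-gene beta-cell list passed the filter, and the log2 of their summed intensity was 17.85 to 17.95 on BayK8644 arrays, 17.82 to 18.01 on Exendin-4 arrays, 17.88 to 17.99 on combination arrays and 17.87 to 17.93 on DMSO arrays. None of 8 mesenchymal, endothelial and leukocyte markers passed (0 of 8). Of the other endocrine markers 3 of 5 annotated passed, with Gcg, the glucagon gene, between 9.08 and 10.06 and Sst, the somatostatin gene, between 5.09 and 7.61. Their summed level was 9.71 to 9.90 with BayK8644, 9.27 to 9.81 with Exendin-4, 9.74 to 10.19 with both and 9.26 to 9.70 with DMSO. It was thus higher on each array with BayK8644, alone or combined, than on any DMSO array, and its part in the results was not tested. Of the exocrine and duct markers 1 of 5 annotated passed, Cela1, between 8.95 and 9.60.

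Igfbp4 was the member that moved most. It encodes a secreted protein that binds IGFs and keeps them from their receptors, and lies at chr11:99040005-99052655 (GRCm38.p6, as for all positions here). On BayK8644 arrays its log2 level was 12.51, 12.69, 13.28 and 13.58 at 0.5, 2, 6 and 24 h. On combination arrays it was 12.54, 12.83, 13.15 and 13.62. Exendin-4 arrays gave 12.45, 12.55, 12.56 and 13.05, against 12.37, 12.67, 12.53 and 13.00 on DMSO arrays. At 6 and 24 h both arrays with BayK8644 lay above both arrays without it, and at 0.5 and 2 h the 4 arrays lay close together.

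With BayK8644 present, Igfbp4 was higher by 0.67 ± 0.07 (SE) on the log2 scale at 6 h, a 1.59-fold difference with an adjusted p of 0.00200, and by 0.57 ± 0.07 at 24 h, a 1.48-fold difference with an adjusted p of 0.00352. Each of these values is a mean of 2 arrays that held the agent minus the mean of 2 that lacked it, from a limma fit across all genes. At 0.5 h the difference was 0.11 and at 2 h it was 0.15, and neither passed. The BayK8644 difference at 24 h exceeded that at 0.5 h by 0.46 ± 0.10, which missed the threshold (adjusted p = 0.0837). The call at 6 h was lost without the DMSO array or the BayK8644 array of that time (difference 0.59, adjusted p up to 0.0787). The call at 24 h held with each of the 16 arrays left out. The single pairs of arrays at 6 h differed by 0.74 (BayK8644 minus DMSO) and 0.59 (combination minus Exendin-4), and at 24 h by 0.57 and 0.56. Leaving out an array of the time tested leaves such a single pair to set the difference. Leaving out an array of another time changes the error and not the arrays compared. The 16 leave-outs are therefore not independent checks, and they overlap with the pairs.

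All 6 Igfbp4 probe sets passed the filter and all gave a higher level with BayK8644, by 0.62 to 0.83 at 6 h and by 0.57 to 0.91 at 24 h. When every probe set was tested on its own, 5 of 6 were called at 6 h and 6 of 6 at 24 h. For the change of the BayK8644 effect from 0.5 to 24 h, the 6 gave 0.45 to 0.90, and 1 was called in limma (adjusted p = 0.0290). The probe sets measure the same gene on the same arrays and are not replicates.

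Foxo3 (chr10:42181845-42276695), a FoxO factor that drives genes of stress resistance and cell-cycle arrest, was lower with BayK8644 at 6 h. BayK8644 arrays held 10.19, 9.85, 9.85 and 10.49 at the 4 times, and combination arrays 10.24, 9.70, 9.88 and 10.39. Exendin-4 arrays held 10.17, 10.37, 10.35 and 10.70, against 10.22, 10.23, 10.465 and 10.45 on DMSO arrays. The arrays with BayK8644 stood below the others at 2 and 6 h, and all 4 arrays were close at 0.5 h.

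With BayK8644 present, Foxo3 was lower by 0.54 ± 0.11 on the log2 scale at 6 h (adjusted p = 0.0394). At 2 h the difference was -0.53 ± 0.11 and just missed the threshold (adjusted p = 0.0507). At 24 h it was -0.13 ± 0.11 (adjusted p = 0.518). The second probe set gave -0.46 at 2 h and -0.41 at 6 h, the same direction without passing, and with every probe set tested on its own the first did not pass at 6 h either (adjusted p = 0.0899). The 6 h call was lost without any single array of 0.5 or 6 h (differences -0.61 to -0.46, adjusted p up to 0.347).

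Foxo1 (chr3:52268337-52350109), the FoxO factor best described in beta cells, was lower on the later BayK8644 arrays without passing at any single time. Its levels were 7.78, 7.39, 7.06 and 7.10 with BayK8644 and 7.34, 7.25, 7.07 and 7.05 with both agents. They were 7.55, 7.52, 7.63 and 7.46 with Exendin-4, against 7.65, 7.48, 7.40 and 7.51 with DMSO. At 6 and 24 h the 2 arrays with BayK8644 lay below the 2 without it. The difference was -0.45 ± 0.13 at 6 h (adjusted p = 0.132) and -0.41 ± 0.13 at 24 h (adjusted p = 0.106). The other 2 probe sets of Foxo1 above the filter gave -0.05 and -0.06 at 6 h, and 0.05 and -0.09 at 24 h, so the probe sets disagree in size and at 24 h in sign.

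**Figure D1:**
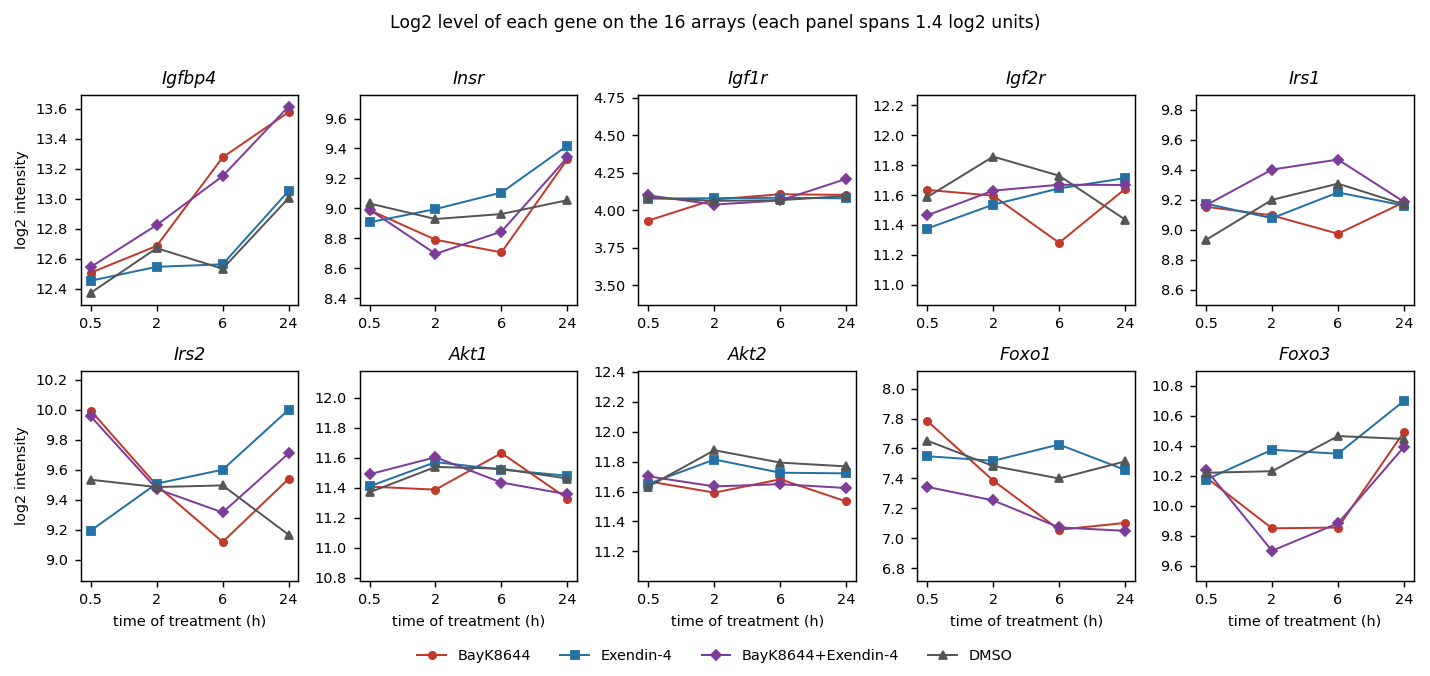
Log2 GCRMA intensity of the 10 genes (vertical axes, each spanning 1.4 log2 units) at 0.5, 2, 6 and 24 h (equally spaced), 1 point for each array, with lines joining arrays of 1 treatment. Igfbp4 reaches 13.58 with BayK8644 and 13.62 with both agents at 24 h, against 13.00 with DMSO, and Foxo3 dips to 9.85 with BayK8644 at 2 h, against 10.23 with DMSO.

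Set against all genes, BayK8644 called 0.217% of the 10610 genes at 0.5 h, 1.63% at 2 h, 2.48% at 6 h and 5.11% at 24 h. Of the 10 members, 0 were called at 0.5 h, 0 at 2 h, 2 at 6 h (Igfbp4 higher, Foxo3 lower) and 1 at 24 h (Igfbp4). The members were chosen with earlier results of these data known, so these counts are a description. The median difference of the members was 0.05, -0.07, -0.15 and 0.03 at the 4 times, beside 0.01, -0.01, 0.01 and 0.01 over all genes. At 6 h, 7 of the 10 members had a negative difference. For the change of the BayK8644 effect between 0.5 and 24 h, 0 members were called, against 1.02% of all genes.

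A comparison added after the data were seen set all 8 arrays with BayK8644 against the 8 lacking it, with time and Exendin-4 in the model. The 8 arrays are 4 times with and without Exendin-4, not replicates. The error held departures from additive agent effects and differences in those effects between times. The values average unlike times, as Igfbp4 differed by 0.11 at 0.5 h and 0.67 at 6 h. Igfbp4 was higher by 0.37 ± 0.07 (adjusted p = 0.00619), Foxo3 differed by -0.29 ± 0.08 (adjusted p = 0.0296) and Foxo1 by -0.27 ± 0.07 (adjusted p = 0.0385). These were the 3 members called, and 8.86% of all genes were called. The Foxo1 value is of its brightest probe set alone. With BayK8644, its 3 probe sets above the filter ranged from -0.45 to -0.05 at 6 h and from -0.41 to 0.05 at 24 h. Akt2 gave -0.11 ± 0.04 (adjusted p = 0.0722).

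No IRS adaptor was called in any comparison of an agent at a time. Irs2 (chr8:10984681-11008929), with 1 probe set, had levels of 9.99, 9.50, 9.12 and 9.54 with BayK8644 and 9.96, 9.47, 9.32 and 9.71 with both agents. Exendin-4 arrays gave 9.19, 9.51, 9.60 and 10.001, against 9.53, 9.48, 9.50 and 9.17 with DMSO. At 0.5 h both arrays with BayK8644 lay above both without it, at 2 h the 4 arrays were alike, and at 24 h both arrays with Exendin-4 lay above both without it.

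The Irs2 difference with BayK8644 was 0.61 ± 0.15 at 0.5 h (95% interval 0.28 to 0.94), but its adjusted p was 0.563. At 6 h it was -0.33 ± 0.15 (adjusted p = 0.333). With Exendin-4 it was 0.50 ± 0.15 at 24 h (95% interval 0.17 to 0.83, adjusted p = 0.783). The single pairs of that time differed by 0.83 (Exendin-4 minus DMSO) and 0.17 (combination minus BayK8644). The DMSO array of 24 h, at 9.17, was the lowest of its treatment. The change of the BayK8644 effect from 0.5 to 24 h was -0.57 ± 0.21 (adjusted p = 0.244), and it was called when the DMSO array or the BayK8644 array of 24 h was left out. The 0.5 h difference was also called when arrays were weighted by the spread at their time.

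Irs1 (chr1:82233105-82291439), the other widely expressed adaptor, had levels between 8.93 and 9.47 over the 16 arrays. Its differences with BayK8644 lay between -0.06 and 0.11, and those with Exendin-4 between -0.00 and 0.22, each with an SE of 0.15, and none passed. For Irs1 at 24 h with BayK8644 the 95% interval was -0.32 to 0.36.

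Among the receptors, Insr (chr8:3150922-3279649), the insulin receptor, had levels of 8.99, 8.79, 8.71 and 9.33 with BayK8644 and 8.99, 8.70, 8.85 and 9.34 with both agents. Levels were 8.91, 8.996, 9.11 and 9.42 with Exendin-4, against 9.03, 8.93, 8.96 and 9.05 with DMSO. At 6 h the arrays with BayK8644 lay below those without it, and the difference of -0.26 ± 0.11 did not pass (adjusted p = 0.321). Insr at 24 h was 9.05 with DMSO and between 9.33 and 9.42 on the other 3 arrays.

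Igf2r (chr17:12682406-12769706), which binds IGF2 and delivers it for degradation and also carries lysosomal enzymes, lay between 11.28 and 11.86. Its differences with BayK8644 ranged from -0.21 to 0.08 and with Exendin-4 from -0.19 to 0.15, and none passed. The second Igf2r probe set disagreed in sign at some times, without passing. With Exendin-4 it gave 0.16 at 0.5 h and 0.29 at 2 h, against -0.19 and -0.14 for the first. With BayK8644 at 24 h it gave -0.11, against 0.08. Igf1r (chr7:67952257-68233668), the main growth receptor for IGFs, read 3.93 to 4.21 on all 16 arrays. That is at the filter level, and its other 4 probe sets stayed below it, so the arrays give no usable measure of how Igf1r responded.

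Akt1 (chr12:112653821-112674884) lay between 11.33 and 11.63 and Akt2 (chr7:27591552-27640826), the AKT isoform best known for metabolic control, between 11.53 and 11.88. The largest Akt difference with BayK8644 was that of Akt2 at 2 h, -0.23 ± 0.06 (adjusted p = 0.140). Akt2 held 11.59 with BayK8644 and 11.63 with both agents at that time, and 11.81 with Exendin-4, against 11.88 with DMSO. The second Akt2 probe set gave -0.28, -0.11 and -0.22 at 2, 6 and 24 h without passing, and the third lay at the filter level, between 3.84 and 4.46.

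Across the 16 arrays, the SD of Igfbp4 exceeded that of 96.2% of the genes tested. Foxo3 exceeded 88.8% and Irs2 88.5%, while Akt1 exceeded 19.7% and Akt2 18.0%. Igfbp4 varied with time as well as treatment, so this SD mixes both.

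**Figure D2:**
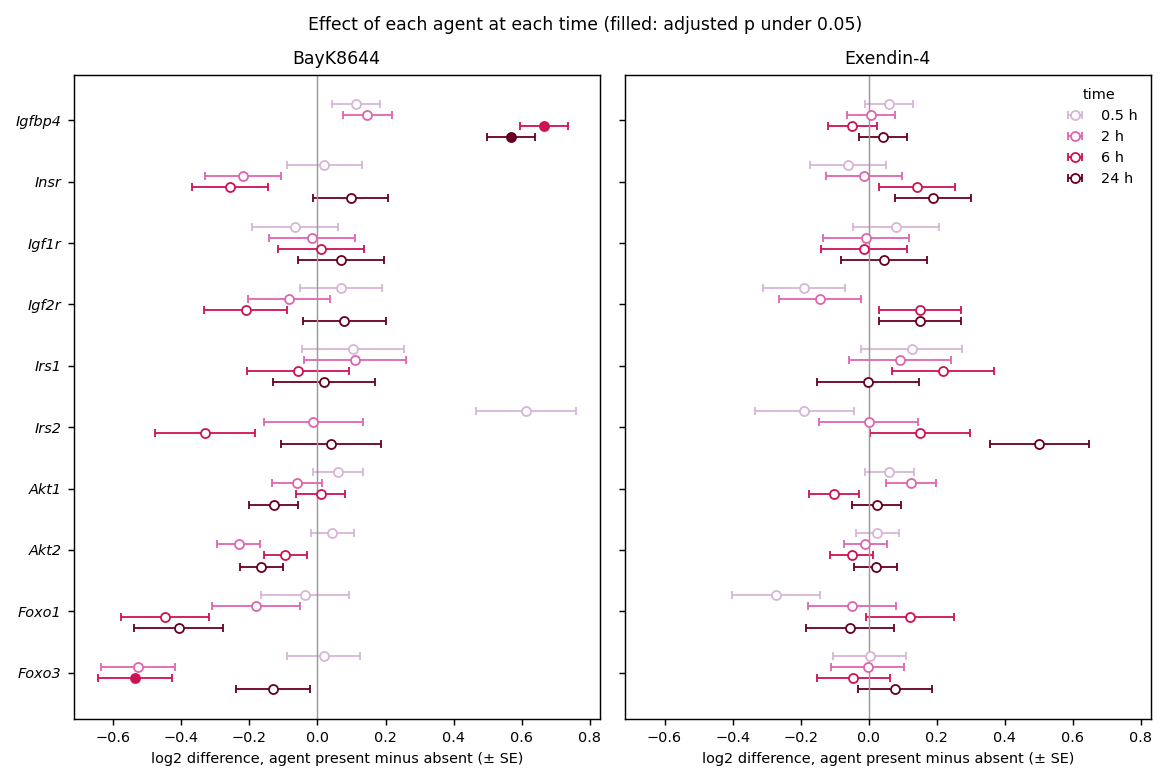
Log2 difference with each agent present minus absent (horizontal axes, ± SE) for the 10 genes, at 0.5, 2, 6 and 24 h, BayK8644 at left and Exendin-4 at right; filled points have an adjusted p under 0.05. The filled points are Igfbp4 at 6 and 24 h and Foxo3 at 6 h, all with BayK8644.

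Exendin-4 called no member at any time. Over all genes it called 0.00943% at 0.5 h, 0.0189% at 2 h, 0% at 6 h and 0% at 24 h, and 739 and 627 genes had an unadjusted p under 0.05 in limma at the 6 and 24 h comparisons. Igfbp4 differences with Exendin-4 lay between -0.05 and 0.06, and at 24 h the 95% interval was -0.12 to 0.20. Foxo3 differences lay between -0.05 and 0.08, with a 95% interval of -0.17 to 0.32 at 24 h. The change of the Exendin-4 effect from 0.5 to 24 h called 0 members and 0.00943% of genes.

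Treatments were next compared over the 4 times, with time as a block. BayK8644 minus DMSO called 0 members, against 0.839% of genes, with Igfbp4 at 0.37 ± 0.10 (adjusted p = 0.116). The combination minus DMSO called Igfbp4, at 0.39 ± 0.10 (adjusted p = 0.0415), against 6.97% of genes. That call was lost without any of 8 arrays, of 2, 6 or 24 h, with differences of 0.32 to 0.47 and an adjusted p up to 0.167. Exendin-4 minus DMSO called 0 members and 0% of genes in limma, 698 genes having an unadjusted p under 0.05. BayK8644 minus Exendin-4 called 0 members, against 0.754% of genes, with Igfbp4 at 0.36 ± 0.10 (adjusted p = 0.143).

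For Igfbp4 the combination departed from the sum of the agents' effects by 0.01 ± 0.15 (95% interval -0.30 to 0.33). No member was called and 0% of genes were called in limma, 710 having an unadjusted p under 0.05. The comparisons with DMSO share the same 4 DMSO arrays.

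Times were compared over the 4 treatments. Compared with 0.5 h, 2 h called 0 members and 4.68% of genes, 6 h called Igfbp4 and 8.41% of genes, and 24 h called 3 members and 23.6% of genes. Counts of 1 and 3 of 10 are near those shares of all genes and are not read as a result about the members. Igfbp4 was higher by 0.41 ± 0.10 at 6 h (adjusted p = 0.0290) and by 0.84 ± 0.10 at 24 h (adjusted p = 5.71e-05). On DMSO arrays alone it was at 12.53 at 6 h and 13.00 at 24 h, against 12.37 at 0.5 h. On Exendin-4 arrays it was at 12.56 at 6 h, against 12.45 at 0.5 h. The rise by 6 h was larger on BayK8644 arrays, from 12.51 to 13.28, and on combination arrays, from 12.54 to 13.15. The Igfbp4 call at 6 h was lost without any of the 4 arrays with BayK8644 of 0.5 or 6 h (adjusted p up to 0.112).

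Over the 4 treatments, Insr was higher by 0.31 ± 0.09 at 24 h than at 0.5 h (adjusted p = 0.0269) and Foxo1 fell by 0.30 ± 0.10 (adjusted p = 0.0495). On DMSO arrays alone Insr was at 9.05 at 24 h, against 9.03 at 0.5 h, and Foxo1 at 7.51, against 7.65. On BayK8644 arrays Insr was at 9.33 at 24 h, against 8.99 at 0.5 h, and Foxo1 at 7.10, against 7.78. The DMSO arrays thus differed less between these times than the BayK8644 arrays, and that difference is of single arrays. The Insr call was lost without the Exendin-4 array of 0.5 h or any of 3 arrays with an agent at 24 h (differences 0.23 to 0.29, adjusted p up to 0.0971). The Foxo1 call was lost without any of 12 arrays (adjusted p up to 0.187) and held in 2 of 7 other alternatives, and its other probe sets gave -0.39 and -0.02, neither passing. Foxo3 at 24 h was 0.30 ± 0.11 above 0.5 h without passing (adjusted p = 0.0642). Its second probe set gave 0.43 and passed when every probe set was tested on its own (adjusted p = 0.0277).

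**Figure D3:**
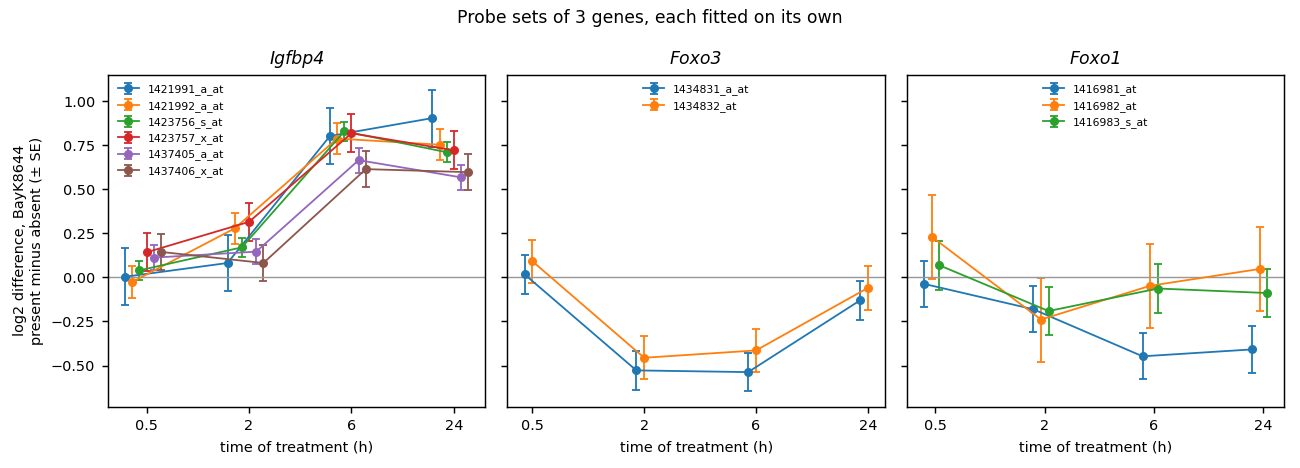
Log2 difference with BayK8644 present minus absent (vertical axis, ± SE) at 0.5, 2, 6 and 24 h for each probe set of Igfbp4 (6), Foxo3 (2) and Foxo1 (3) above the filter, each fitted on its own. The Igfbp4 probe sets lie at 0.62 to 0.83 at 6 h, those of Foxo3 at -0.54 and -0.41, and those of Foxo1 range from -0.45 to -0.05.

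Promoter sequence is shown for Igfbp4, Foxo3 and Foxo1, the 3 members called over the 8 arrays with BayK8644. Windows run from 250 bases before to 50 after the transcript start in RefSeq (GRCm38.p6), 5′ to 3′ on the gene's strand. Capitals mark matches, on either strand, to a cAMP response element (TGACGTCA), its core (TGACG, which the full element contains), an AP-1 site (TGANTCA), a FoxO site (TGTTTAC) or an NFAT core (GGAAAA), factors linked to calcium, cAMP or AKT signalling. The Igfbp4 window is chr11:99040994-99041293 on the plus strand, inside a gene record that starts further upstream at 99040005. That of Foxo3 is chr10:42276646-42276945 on the minus strand and that of Foxo1 is chr3:52268087-52268386 on the plus strand.
Igfbp4: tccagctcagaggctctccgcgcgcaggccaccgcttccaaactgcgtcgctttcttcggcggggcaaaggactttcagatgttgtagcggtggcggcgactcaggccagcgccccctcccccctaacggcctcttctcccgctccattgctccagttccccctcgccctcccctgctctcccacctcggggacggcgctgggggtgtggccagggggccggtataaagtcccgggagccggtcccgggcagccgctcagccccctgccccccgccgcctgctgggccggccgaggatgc
Foxo3: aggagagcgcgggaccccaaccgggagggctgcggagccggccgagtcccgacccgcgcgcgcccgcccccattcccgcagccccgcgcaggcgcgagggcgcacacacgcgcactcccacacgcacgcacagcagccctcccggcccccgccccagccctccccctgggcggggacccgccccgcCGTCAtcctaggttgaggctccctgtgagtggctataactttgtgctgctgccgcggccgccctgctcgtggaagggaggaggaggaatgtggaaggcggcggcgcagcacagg
Foxo1: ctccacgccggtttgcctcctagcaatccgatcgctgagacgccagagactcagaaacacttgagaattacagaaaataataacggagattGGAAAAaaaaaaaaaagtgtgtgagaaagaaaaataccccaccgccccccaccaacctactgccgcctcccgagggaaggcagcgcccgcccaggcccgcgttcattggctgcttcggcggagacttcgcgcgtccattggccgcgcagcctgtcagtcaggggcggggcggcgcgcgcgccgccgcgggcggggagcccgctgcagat

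Igfbp4 held none of the 5 motifs in its window. Foxo3 held 1 CRE core, at position 187 of the window, and Foxo1 held 1 NFAT core, at position 92. In 32851 RefSeq promoter windows of the same length, a full element was found in 1.79%, a CRE core in 20.8%, an AP-1 site in 7.81%, a FoxO site in 3.65% and an NFAT core in 23.4%. Of the 10 members, 9 had a window, 13 windows in all. Irs1 held 1 CRE core and Igf2r 3, Akt2 held one in 2 of its windows and Akt1 held a FoxO site in 1, while Irs2 and Igf1r held none of the 5 motifs. These are letter matches, not measured binding.

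The genes most like Igfbp4 over the 16 arrays, among 2559 genes whose SD over the arrays passed 0.2, were Anxa5 (Pearson r = 0.964), Bckdhb (0.961) and Abcc4 (0.953). For Foxo3 they were 9130016M20Rik (0.911), Ccdc28a (0.904) and Cc2d2a (0.898), and for Irs2 they were Pcdhb21 (0.720), Fat1 (0.678) and Lpp (0.667). These describe likeness over arrays that share treatments and times.

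Other genes of the pathway were read from a list of 72, of which 54 were tested. BayK8644 called 0 at 0.5 h, 2 at 2 h (both higher), 3 at 6 h (2 higher, 1 lower) and 5 at 24 h (2 higher, 3 lower). That is 3.70%, 5.56% and 9.26% of the list at 2, 6 and 24 h, beside 1.63%, 2.48% and 5.11% of all genes, and Exendin-4 called 0 at every time. This list too was chosen with earlier results of these data known, so its share is a description and not a test. The list's median difference with BayK8644 was 0.02, -0.00, 0.02 and -0.00 at the 4 times, beside 0.01, -0.01, 0.01 and 0.01 over all genes. Pappa2, a protease of IGF-binding proteins, was at 6.41 with BayK8644, 7.12 with both agents and 5.38 with Exendin-4 at 24 h, against 4.39 with DMSO. The log2 difference with BayK8644 was 1.88 ± 0.17 (adjusted p = 0.000566), and the lower arrays lay near the filter level. Pappa, which cleaves IGFBP-4, was lower by 1.20 ± 0.24 with BayK8644 at 24 h (adjusted p = 0.0240). It read 4.94 and 5.68 on the arrays with BayK8644 and 6.54 and 6.48 on those without it. From 0.5 to 24 h, Pappa went from 5.33 to 6.48 on DMSO arrays and from 5.44 to 4.94 on BayK8644 arrays. Eif4ebp1, a translation repressor that mTOR inhibits, was higher by 0.46, 0.59 and 0.56 at 2, 6 and 24 h. Inppl1, a lipid phosphatase that opposes PI 3-kinase, was higher by 0.61 at 2 h and 0.59 at 6 h. Sgk1, a kinase related to AKT, was lower by 0.76 at 6 h and by 0.68 at 24 h, and Deptor, an mTOR inhibitor, was lower by 0.70 at 24 h. The other 4 Deptor probe sets gave -0.40 to -0.02 at 24 h, and none of the 5 passed when tested on its own. In that limma fit Pappa at 24 h did not pass either (adjusted p = 0.0642). Nor did Inppl1 at 2 and 6 h (adjusted p = 0.0972 and 0.0796) or Sgk1 at 6 and 24 h (adjusted p = 0.0944 and 0.0804).

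The list of genes described as FoxO targets held 30 genes, of which 24 were tested, among them Insr and Irs2. BayK8644 called 0 at 0.5 h, 5 at 2 h (4 lower, 1 higher), 5 at 6 h (all lower) and 6 at 24 h (5 lower, 1 higher). That is 20.8%, 20.8% and 25.0% of the list at 2, 6 and 24 h, beside 1.63%, 2.48% and 5.11% of all genes, and Exendin-4 called none at any time. The list was chosen with earlier results of these data known, so its share describes the chosen genes and is not a test of FoxO targets. The list's median difference was 0.02, -0.21, -0.26 and -0.04 at the 4 times, beside 0.01, -0.01, 0.01 and 0.01 over all genes. Gadd45a, a growth arrest gene, was at 11.27 with BayK8644 and 11.43 with both agents at 24 h, and at 12.52 with Exendin-4, against 12.33 with DMSO. With BayK8644 present it was lower by 0.59, 0.84 and 1.07 at 2, 6 and 24 h, and Sesn3, which restrains mTOR, by 0.36, 0.49 and 0.72. Txnip, a thioredoxin inhibitor, was lower by 0.66, 0.66 and 0.63, and Ccng2, a cyclin linked to arrest, by 0.65, 0.52 and 0.46. Mxi1, a MYC antagonist, was lower by 0.48 at 6 h and by 0.45 at 24 h. Cdkn1a, the cell-cycle inhibitor p21, was higher by 0.32 at 2 h and 0.34 at 24 h, so it moved against the rest of the called genes. With every probe set tested on its own in limma, no Ccng2 probe set passed at 2, 6 or 24 h (lowest adjusted p 0.0591). The same held for Sesn3 and Cdkn1a at 2 h and for Mxi1 at 6 h.

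The calls of Gadd45a at 6 and 24 h, Sesn3 at 24 h and Pappa2 at 24 h held with each array left out. As for Igfbp4, these leave-outs are not independent checks. The Eif4ebp1 and Txnip calls at 24 h were lost without either array that held Exendin-4 at 24 h (adjusted p up to 0.0774 for Eif4ebp1 and 0.0627 for Txnip), as was the Gadd45a call at 2 h without those arrays of 2 h (adjusted p up to 0.134). The other calls of named genes were lost without between 4 and 12 of the 16 arrays, which included arrays of the time tested (adjusted p up to 0.472). These lists mix regulation by FoxO factors with other inputs, and the part of each was not tested.

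**Figure D4:**
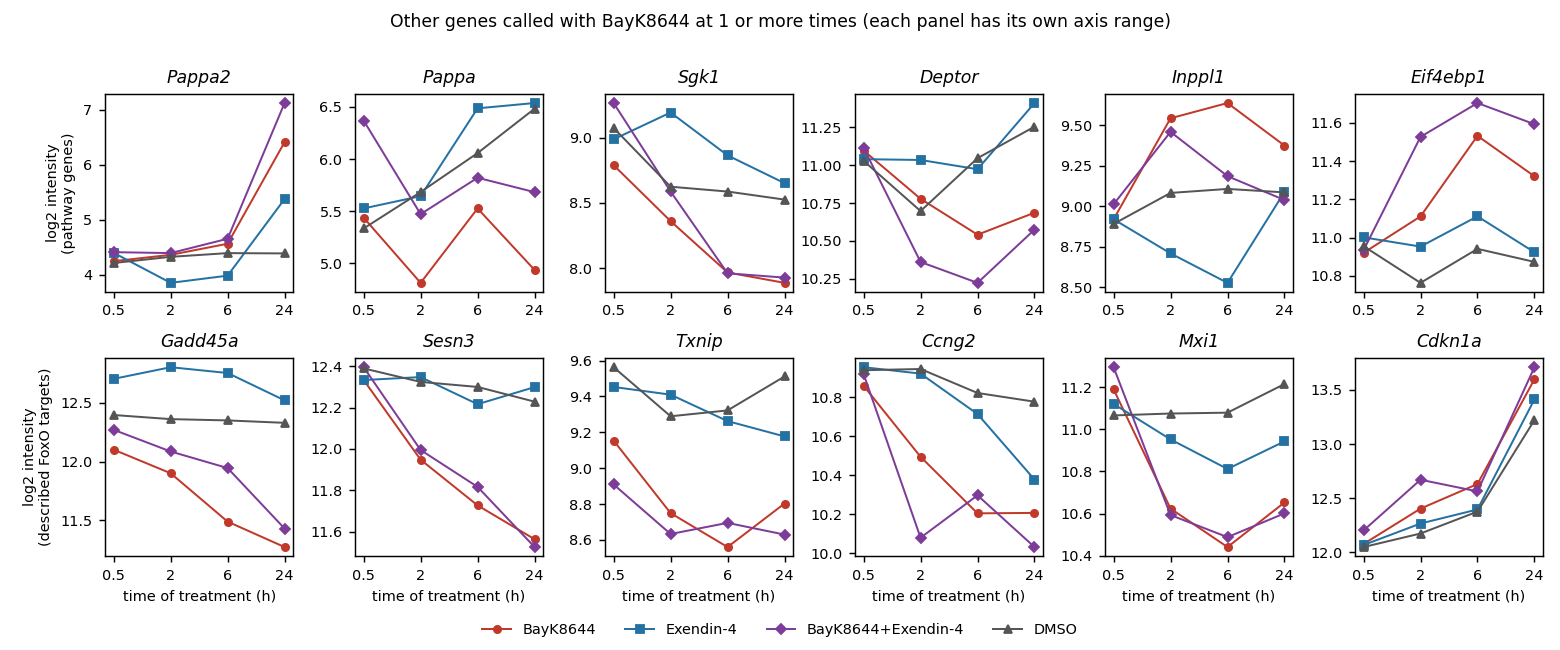
Log2 intensity of 6 further pathway genes (top) and 6 genes described as FoxO targets (bottom) on vertical axes with their own ranges, at 0.5, 2, 6 and 24 h, 1 point for each array and lines joining arrays of 1 treatment. Gadd45a stands at 11.27 with BayK8644 and 11.43 with both agents at 24 h, against 12.33 with DMSO, while Cdkn1a is higher at 24 h under all 4 treatments.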

How the data were processed

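Each of the 16 1-colour Affymetrix arrays had a linear intensity for 45101 probe sets. GCRMA produced the deposited intensity values, as the submitters' processing notes name it, and its version was not given in the sources used here. Per the labels' protocols, RNeasy columns were used and 5 ug of RNA was amplified. GCRMA corrects background and normalizes between arrays, so values near its floor carry little information. Log2 of the intensity was taken with no offset. Probe sets with 1 symbol in the platform annotation (34945) were kept where log2 reached 4 on at least 2 arrays, and the highest-mean one stood for its gene, giving 10610 genes. The limma package (3.58.1, under R 4.3.3) fitted the models with lmFit and with eBayes set to an intensity trend, was tested on simulated data, and was followed by Benjamini-Hochberg adjustment over all genes and 0.05 as threshold. One fit held time and an additive effect of each agent at each time (4 residual degrees of freedom), and the other held time and treatment (9). Median intensity per array lay between 10.5 and 11.6. The named members and lists were chosen with earlier results of these data known, and the other genes named are up to 12 per list that were called for an agent at a time, by size of difference, and the 3 genes most correlated with each of the 3 most variable members. Alternatives changed the filter, probe set, trend, normalization, floor, offset, weights and arrays. Figures were drawn with matplotlib.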

Additional observations from a re-analysis of the deposited data

Results flagged for a closer look

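Of 40 sets of 4 arrays (10 genes, 4 treatments), 2 held an array far from the others by Dixon's test, and chance alone flags about 1 in 20 such sets. Irs2 was at 9.17 on the DMSO array of 24 h, with the next DMSO array at 9.48. Igf2r was at 11.28 on the BayK8644 array of 6 h, with the next BayK8644 array at 11.60. That flag is of the brightest Igf2r probe set alone. The second one read 10.93, 11.03, 11.10 and 10.92 on the BayK8644 arrays of 0.5, 2, 6 and 24 h, highest at 6 h. Each set of 4 arrays holds 4 times of 1 treatment, so an array that stands apart there differs in time from the others.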

How the results depend on the processing

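Igfbp4 was called with BayK8644 at 6 and 24 h, and at 24 h over 0.5 h, under all alternatives run other than leaving out an array, which lost it at 6 h only. The count of members called with BayK8644 at 6 h was 1 instead of 2 with no filter on dim probe sets, with every probe set tested on its own, with no intensity trend, and without the arrays of 0.5 h. For the combination minus DMSO it was 0 with those first 3 settings and 3 with array weights by time (Foxo1, Foxo3 and Igfbp4). With every probe set tested on its own, the count reads each gene from its brightest probe set alone. In that limma fit 1 of the 6 Igfbp4 probe sets passed for the combination minus DMSO (adjusted p = 0.0269), and all 6 were higher. For 6 h minus 0.5 h the count was 0 with no filter, and for 24 h minus 0.5 h it was 1 with no filter and 1 with array weights. Counts of 24 h minus 0.5 h hide that the Foxo1 call held in 2 of 7 and the Insr call in 5 of 7 alternatives. With BayK8644 at 2 h it was 1 (Foxo3) with a further quantile normalization, with array weights and without the arrays of 24 h, and at 0.5 h it was 1 (Irs2) with array weights. BayK8644 minus DMSO called 0 members, while the 8 arrays with BayK8644 against the 8 lacking it called 3. That is a different comparison, since it also takes in the combination and Exendin-4 arrays. Leaving out each array in turn gave 0 to 1 with BayK8644 at 2 h, 0 to 2 at 6 h, 1 to 1 at 24 h, 0 to 1 for the change of the BayK8644 effect, 0 to 2 for the combination minus DMSO, 0 to 1 for 6 h minus 0.5 h, 1 to 4 for 24 h minus 0.5 h, and 0 to 0 for the others. Of the other genes named, Gadd45a, Pappa2, and Eif4ebp1 and Sesn3 at 6 and 24 h kept their BayK8644 calls in all alternatives other than leaving out an array, as did Txnip at 6 h. Cdkn1a at 2 h held in 3 of 9, Ccng2 and Deptor at 24 h in 3 of 8, Sgk1 and Mxi1 at 24 h in 4 of 8, and the others in 5 to 8, with an adjusted p up to 0.264. The cause of these changes was not tested. The 8 against 8 comparison and the fits without a time were added after the data were seen. Time, which the arrays of all treatments share, was a term in every fit, and the labels carry no replicate numbers for a further block.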
